A study of Homo sapiens with 15 samples.

Results

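The genes described here carry names of nuclear-encoded subunits of mitochondrial respiratory complexes II, III, IV and V, together with cytochrome c. They were chosen by name: the 4 SDH genes, every UQCR gene, the COX4 to COX8 genes, every ATP5 gene, CYC1 and CYCS. Symbols ending in a pseudogene number were dropped, which removed 1 gene, ATP5EP2. The names gave 51 genes of 44786 in the deposited table, with 52 of its 49948 transcripts and 267 of its 279143 exons. No measured value entered the choice, but these genes were picked for description with earlier results of the same data known. Symbols are those of the deposited table. ATP5A1, ATP5B and ATP5F1, for example, are now called ATP5F1A, ATP5F1B and ATP5PB. Complexes were assigned by name only, so not every gene counted is a subunit. ATP5SL, now called DMAC2, and ATP5S were counted in complex V for their names.

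The study mapped where the exon junction complex (EJC) sits on messenger RNA in HEK293 Flp-In Trex, a line derived from human embryonic kidney that takes up 1 tagged gene at a fixed site. In RIPiT-Seq, a FLAG-tagged EJC protein was purified first, a second antibody then pulled down a partner protein, and the RNase I-protected RNA fragments ("footprints") were sequenced. The crosslinked libraries came from cells fixed with 0.1% formaldehyde for 10 min and lysed under denaturing conditions, with 2 libraries (A and B) in each of 4 groups. These groups were FLAG-CASC3 cells given cycloheximide at 100 µg/ml for 3 h, untreated FLAG-CASC3 cells, FLAG-RNPS1 cells given the same cycloheximide treatment, and untreated FLAG-RNPS1 cells, all followed by an antibody to EIF4A3. The 5 native libraries, 1 of each kind, came from uncrosslinked cells lysed without denaturation; they paired FLAG-MAGOH with EIF4A3, FLAG-CASC3 with EIF4A3, FLAG-RNPS1 with EIF4A3, FLAG-MAGOH with CASC3 and FLAG-MAGOH with RNPS1. The 2 RNA-seq libraries (A and B) came from cells with no fusion protein and no crosslinking, after removal of ribosomal RNA and fragmentation by base hydrolysis. Each tagged protein was in its own stable line, so an effect of the protein and one of the line cannot be told apart. Footprints and RNA-seq likewise differed in assay, line and crosslinking together. The labels do not say whether A and B were separate cultures. The p-values of the tests on counts below thus measure only the spread between such libraries, which may be technical.

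The respiratory chain passes electrons from metabolic fuels to oxygen in the inner mitochondrial membrane. Complex II (succinate dehydrogenase) feeds electrons into the chain, complex III hands them to cytochrome c, complex IV (cytochrome c oxidase) reduces oxygen, and complex V (ATP synthase) uses the resulting proton gradient to make ATP. A few core subunits of complexes III to V are made inside mitochondria, while all the genes described here are transcribed in the nucleus. Apart from the single-exon UQCRHL and ATP5L2, their messages are also spliced there. Many encode very small proteins, and their messages are short with few exons. The EJC is deposited upstream of exon-exon junctions during splicing, around a core of EIF4A3, MAGOH and RBM8A, and translating ribosomes remove it. RNPS1 and CASC3 are peripheral EJC proteins, RNPS1 mainly nuclear and CASC3 mainly cytoplasmic. Cycloheximide blocks translation elongation.

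Libraries held 467741 to 8057700 counts. Cycloheximide RNPS1 library B was the shallowest and stood apart: its correlation with its partner library A was 0.773 across transcripts, against 0.905 to 0.971 in the other pairs. What changed when it was left out is given beside the results it enters. In RNA-seq, VIM (1035 and 1009 CPM, the count scaled to library size), NEFL (365 and 331), KRT8 (107 and 105) and LIN28B (92.5 and 108) were present, as known for this line. PAX2 (3.49 and 0.845 CPM) and NEFM (0.873 and 0 CPM) were near 0, and the leukocyte markers were at 0. These are bulk libraries, so less RNA in every cell and fewer cells holding it cannot be told apart.

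By the edgeR filter on low counts (filterByExpr, minimum count 10), 43 of the 52 transcripts could be tested. Complex II kept 4 of its 4 genes, complex III 9 of 10, complex IV 11 of 17 and complex V 18 of 19, and CYCS was kept too. The 9 transcripts that failed the filter included the isoforms usually restricted to heart, skeletal muscle, lung or testis. COX6A2, COX7A1 and COX7B2 had 0 counts in all 15 libraries, COX4I2 had 1, COX8C had 3 on one of its 2 records and 0 on the other, and COX6B2 had 45. UQCRHL and ATP5L2, single-exon copies of UQCRH and ATP5L, had 41 and 16 counts over all libraries. Reads shared with the parent genes may be split between copies, so both counts are uncertain.

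In RNA-seq the genes took 0.315% and 0.324% of all counts. Per unit of exon length (RPKM), the highest levels were those of COX6A1 (202 RPKM, mean of 2 libraries) and COX7C (186), small complex IV subunits, and ATP5B (172), the catalytic β subunit of ATP synthase. In total counts, ATP5B led complex V with 316.9 and 314.3 CPM, followed by the catalytic-core α subunit ATP5A1 and the stalk subunit ATP5O, while ATP5G1 was lowest of the tested transcripts with a mean of 7.77 CPM. SDHC (127.6 CPM), UQCRFS1 (150.4 CPM) and COX7C (124.0 CPM) had the highest mean counts in complexes II, III and IV, and SDHD (38.7), UQCRB (32.2) and COX6C (39.4) the lowest among those tested. These counts are not scaled to length, and the order differed per unit of length. SDHC, with 13566 exonic bases, was then lowest in complex II at 9.4 RPKM, against 58.5 for SDHB. UQCRFS1 had 43.3 RPKM, below UQCRH at 126.7. Within the family that encodes the c ring of ATP synthase, ATP5G2 had 43.5, ATP5G3 16.7 and ATP5G1 13 RPKM. COX7A2 had 60.1 and its relative COX7A2L, which binds respiratory supercomplexes, 16.9 RPKM.

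The first question was whether EJC footprints on these messages followed their RNA level. They were lower: in the 13 footprint libraries the genes took 0.0994% to 0.208% of counts (median 0.148%), so every footprint library was below both RNA-seq libraries. In crosslinked untreated CASC3 footprints, 31 of 43 transcripts were lower than in RNA-seq and 1 was higher (edgeR quasi-likelihood test, Benjamini-Hochberg adjusted p under 0.05 over all transcripts tested). Of all 12379 transcripts tested, 24.1% were lower and 27% higher, 51.1% in all. In RNPS1 footprints, 34 of 43 were lower and 2 higher, where 29.6% of all transcripts were lower and 32.1% higher, 61.7% in all. The median log2 fold change of the 43 was -1.31 (2.48-fold lower) in CASC3 and -1.84 (3.57-fold lower) in RNPS1 footprints, against 0.06 and 0.08 for all transcripts. The filter admits transcripts through high RNA-seq counts: 33 of the 43 had at least 10 counts in both CASC3 libraries and 39 in both RNPS1 libraries, and 22 and 30 of these were lower. In CPM, 37 of 43 lay below both RNA-seq libraries in both CASC3 libraries and 4 lay above. In both RNPS1 libraries 37 lay below and 4 above. How many of all transcripts did so was not counted, so these numbers have no background to be set against. By test, 30 transcripts were lower in both footprint types.

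**Figure D1:**
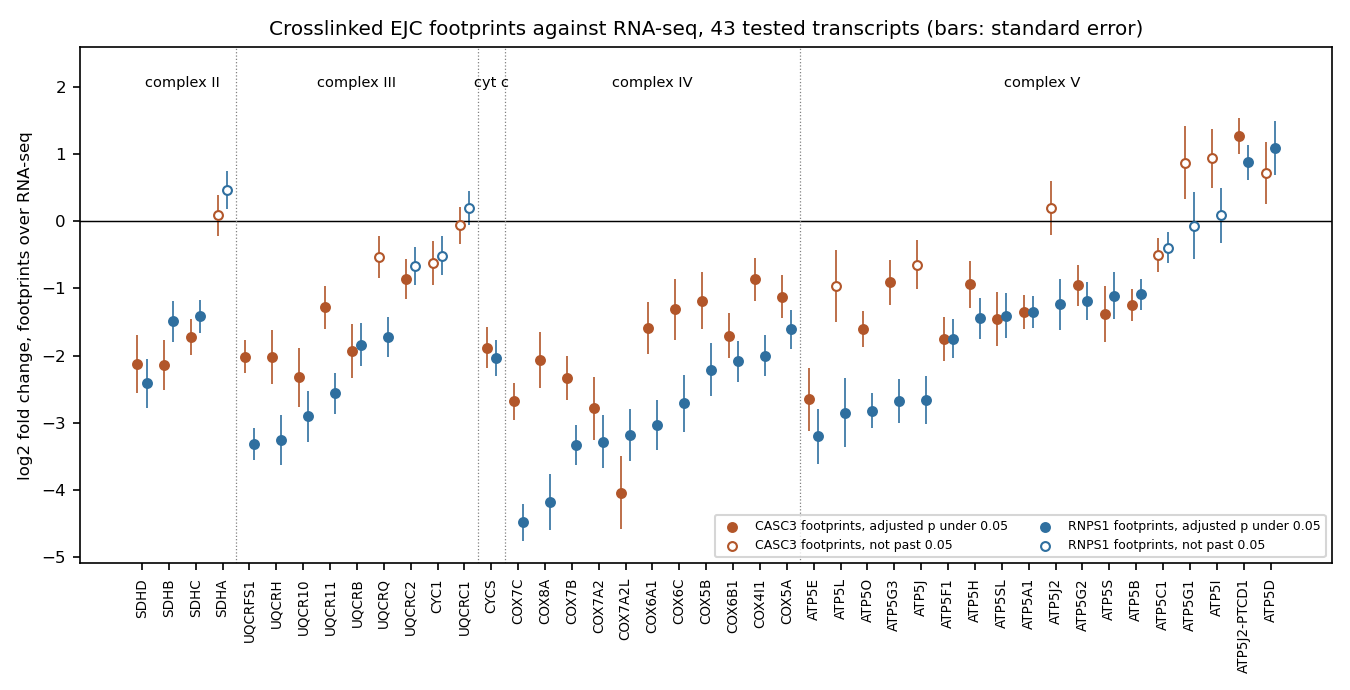
Log2 fold change of crosslinked untreated CASC3 (orange) and RNPS1 (blue) footprints over RNA-seq for the 43 tested transcripts, grouped by complex; bars are standard errors and filled points passed an adjusted p of 0.05. All 11 complex IV subunits lie below 0 in both, and the largest positive values are in complex V.

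Complex IV stood lowest in RNPS1 footprints, with a median log2 fold change of -3.03 and 11 of 11 transcripts lower; in CASC3 footprints its median was -1.70, again with 11 of 11 lower. COX7C, a small membrane subunit encoded at chr5:86617904-86620962 (hg38, plus strand), had 20.1 and 16.4 CPM in CASC3 libraries and 6.0 and 5.8 CPM in RNPS1 libraries, against 119.6 and 128.4 CPM in RNA-seq. The 3 groups did not overlap. Its log2 fold change over RNA-seq was -2.68 ± 0.28 (SE, edgeR adjusted p = 0.000146) in CASC3 and -4.49 ± 0.28 (edgeR adjusted p = 1.03e-05) in RNPS1 footprints. COX8A, a 2-exon gene for a very small membrane subunit (chr11:63974607-63976543, plus strand), had 14.8 and 17.6 CPM in CASC3 libraries and 2.1 and 5.6 CPM in RNPS1 libraries, against 68.1 and 76.0 CPM in RNA-seq. Exon 1 overlaps another annotated transcript on the same strand over 175 of its 188 bases. COX7A2L (chr2:42349338-42369010, minus strand) fell furthest in CASC3 footprints, with 1.1 and 5.0 CPM in CASC3 and 6.0 CPM in each RNPS1 library, against 53.2 and 49.9 CPM in RNA-seq (log2 fold change -4.04 ± 0.55, edgeR adjusted p = 0.000319, in CASC3 and -3.19 ± 0.39, edgeR adjusted p = 9.17e-05, in RNPS1). The CASC3 values are only 1 and 4 counts, and the CASC3 log2 fold change ranged from -8.78 to -3.10 over the 13 alternatives. COX4I1, the largest nuclear subunit of the complex, fell by 0.86 (adjusted p = 0.0419) in CASC3 and by 2.00 (adjusted p = 0.000292) in RNPS1 footprints on the log2 scale, and COX6A1 by 1.59 and 3.03. Their isoforms COX4I2 and COX6A2 were not detected well enough to compare. COX7A2 had log2 fold changes of -2.78 in CASC3 and -3.28 in RNPS1 footprints, and COX7B of -2.34 and -3.34.

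In complex II, 3 of 4 subunits were lower in each footprint type. SDHB carries the iron-sulfur clusters that lead electrons from the flavin to ubiquinone. SDHB had 21.2 and 7.6 CPM in CASC3 and 32.3 and 20.8 CPM in RNPS1 libraries, against 68.1 and 66.8 CPM in RNA-seq (log2 fold change -2.14, adjusted p = 0.00105, and -1.49, adjusted p = 0.00171). The flavoprotein SDHA, a 15-exon message, had 80.5 and 34.0 CPM in CASC3 and 91.0 and 76.0 CPM in RNPS1 libraries, against 63.7 and 48.2 CPM in RNA-seq, and did not pass the test in either (log2 fold change 0.09, adjusted p = 0.813, and 0.46, adjusted p = 0.179). SDHC, a membrane anchor, was lower in both; it has a last exon of 13012 bases, and with last exons left out its log2 fold change in RNPS1 footprints was 0.13.

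In complex III, 6 of 9 subunits were lower in each footprint type, with medians of -1.28 in CASC3 and -1.84 in RNPS1. The Rieske iron-sulfur protein gene UQCRFS1 was 2.02 lower on the log2 scale in CASC3 (adjusted p = 0.00021) and 3.32 lower in RNPS1 (adjusted p = 1.42e-05). The small subunit genes UQCRH (-2.02 and -3.26) and UQCR10 (-2.33 and -2.90) behaved likewise. The larger core protein gene UQCRC1, with 13 exons, had 58.3 and 57.9 CPM in CASC3 and 71.9 and 85.9 CPM in RNPS1 libraries, against 63.7 and 65.1 CPM in RNA-seq, and did not pass the test (adjusted p = 0.866 and 0.523). CYC1, the cytochrome c1 gene, also passed in neither. CYCS, which encodes the mobile carrier cytochrome c, was 1.88 lower in CASC3 and 2.03 lower in RNPS1 footprints on the log2 scale.

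Complex V was the most mixed: 10 of 18 transcripts were lower and 1 higher in CASC3 footprints (median -0.95), and 13 were lower and 2 higher in RNPS1 footprints (median -1.30). These 18 were assigned by name and include ATP5SL and ATP5S, both lower in each footprint type, and the read-through ATP5J2-PTCD1 described below. Differences between complexes were not tested. Both large subunits of the catalytic head were lower. ATP5B had 146.2 and 107.1 CPM in CASC3 and 170.9 and 151.3 CPM in RNPS1 libraries, against 316.9 and 314.3 CPM in RNA-seq (-1.24 ± 0.24, edgeR adjusted p = 0.00182, and -1.09 ± 0.23, edgeR adjusted p = 0.00205). ATP5A1 was 1.35 lower in both on the log2 scale (adjusted p = 0.00164 in CASC3 and 0.00071 in RNPS1). ATP5E, the small ε subunit of ATP synthase, fell by 2.65 and 3.21. For the c ring genes, ATP5G3 had log2 fold changes of -0.91 in CASC3 and -2.68 in RNPS1 and ATP5G2 of -0.95 and -1.19, all lower by test, while ATP5G1 had 0.88 and -0.06 and passed in neither (adjusted p = 0.203 and 0.921).

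The transcript above RNA-seq in both footprint types was ATP5J2-PTCD1, a read-through of ATP5J2 into its neighbour PTCD1, with 93.2 and 70.5 CPM in CASC3 and 75.7 and 66.6 CPM in RNPS1 libraries, against 43.6 and 27.9 CPM in RNA-seq. Its exons are shared with PTCD1 and ATP5J2, so these counts cannot be given to the ATP synthase subunit, and its RNPS1 value turned to -0.10 with last exons left out. ATP5D, the δ subunit of ATP synthase, was higher in RNPS1 footprints, with 26.8 and 39.1 CPM against 20.1 and 9.3 CPM in RNA-seq (1.09 ± 0.40, edgeR adjusted p = 0.036). This rests on 23 and 11 RNA-seq counts and was called again in 3 of 6 fits with a library left out, with values from 0.34 to 1.70 over all 13 alternatives; it was lost without CASC3 library A, RNPS1 library B or RNA-seq library B. The 6 transcripts that passed in neither comparison were ATP5C1, ATP5G1, ATP5I, CYC1, SDHA and UQCRC1.

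RNA-seq reads also cover last exons, which have no downstream junction, so the comparison was repeated with first and internal exons only. The count of lower transcripts was then 25 of 43 in CASC3 footprints, where 15.7% of all transcripts were lower, and 32 of 43 in RNPS1 footprints, where 20.7% were; none of the 43 was higher. The medians were -1.29 and -2.16. Of the 32 CASC3 calls, 20 were made again whichever single library was left out, and of the 36 RNPS1 calls, 30 were.

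These messages had a median of 5 exons and 1268 exonic bases, against 9 exons and 3010 bases for all transcripts tested, and values over RNA-seq went with exon number (Spearman's rho across the 43 was 0.44 in CASC3 and 0.72 in RNPS1 footprints, against 0.46 and 0.49 across all transcripts; genes share libraries and are not independent). The 21 with 2 to 4 exons had a median log2 fold change of -1.88 in CASC3 and -2.71 in RNPS1 footprints, against -0.90 and -1.23 for other transcripts with as many exons. The 14 with 5 to 7 exons had -1.04 and -1.43, against -0.41 and -0.45 for others. The 8 with 8 or more exons had -0.68 and -0.53, against 0.50 and 0.60 for others. In every bin the respiratory genes were thus below the other transcripts of that bin, a description for which no test was run. The last bin is not matched for exon number. It has no upper limit, its respiratory genes have 8 to 15 exons, and values rise with exon number across all transcripts. For comparison, complex I subunits had 17 of 36 lower and 4 higher in CASC3 footprints (median -0.73) and 16 lower and 5 higher in RNPS1 footprints (median -0.88). Cytoplasmic ribosomal proteins, also short messages, had 46 of 82 lower and 4 higher in CASC3 (median -1.09). In RNPS1 footprints 80 of 82 were lower and 0 higher (median -3.06). Of 26 complex IV assembly factors, 6 were lower and 1 higher in CASC3 and 12 lower and 1 higher in RNPS1 footprints (medians -0.77 and -0.74).

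Within the messages, footprints lay away from last exons. Over the 49 multi-exon transcripts, last exons held 61.9% of exonic length. They took 17.1% ± 4.54 of counts in footprints (SD, n = 13 libraries, 11.01% to 25.6%), against 40.3% and 41.3% in the 2 RNA-seq libraries. No footprint library reached an RNA-seq value, and the difference of -23.7 percentage points had an exact two-sided permutation p of 0.019, the smallest that 13 against 2 libraries allow. The permutation treats footprint libraries of different kinds, A and B pairs included, as exchangeable and independent. Its p-values are therefore descriptive and do not measure the spread between A and B libraries. Taken instead as the median of each gene's own share over the 2 genes with at least 20 counts in every library, it was 9.18% ± 3.46 in footprints (SD, n = 13) against 16.3% and 19.2% in RNA-seq, a difference of -8.54 points with overlapping groups (exact two-sided permutation p = 0.0381). Over all transcripts, last exons took 12.1% to 22.5% in footprints against 44.4% and 45.3% in RNA-seq, a gap in the same direction. First exons of these transcripts took 3.88% and 3.08% of counts in cycloheximide CASC3 libraries, against 21.9% and 25.6% in untreated CASC3 libraries; in RNPS1 the values were 10.3% and 24.5% with cycloheximide and 15.3% and 14.8% without. Over all transcripts first exons took 2.26% and 2.12% in cycloheximide CASC3 libraries against 11.7% and 14.8% in untreated ones, a shift in the same direction.

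**Figure D2:**
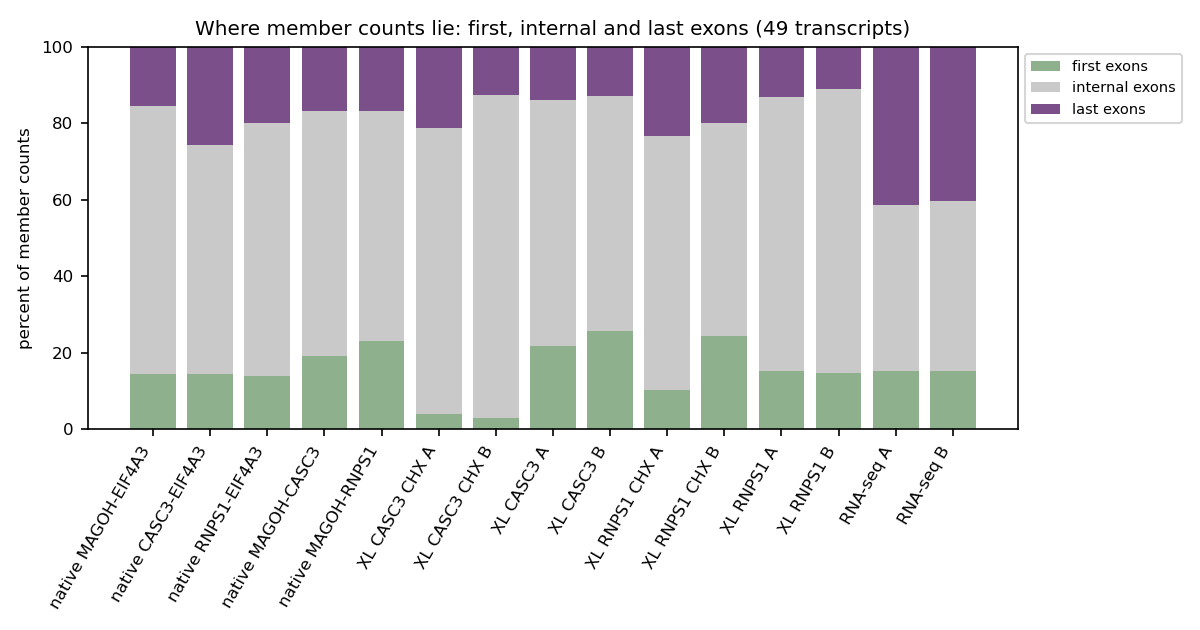
Percent of counts in first (green), internal (grey) and last (purple) exons of the 49 multi-exon transcripts in each of the 15 libraries. Last exons took 11.01% to 25.6% in the 13 footprint libraries and about 40% in both RNA-seq libraries, and first exons are thinnest in the 2 cycloheximide CASC3 libraries.

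Exon by exon, 86 of 123 tested exons of these genes were lower in CASC3 footprints than in RNA-seq and 1 was higher, where 21.8% of all 38550 exons were lower and 20.6% higher, 42.4% in all. In RNPS1 footprints 96 were lower and 1 higher, against backgrounds of 24.5% and 25.8%, 50.3% in all. Lower calls were not confined to last exons. Of 65 internal exons, 39 were lower in CASC3, against 7.81% of all internal exons, and 44 in RNPS1, against 9.3%. Among first exons 12 of 22 and 17 of 22 were lower, against 8.39% and 12.4%. Last exons were lower in 35 of 36 cases in each, where 71.9% and 77.8% of all last exons were. Footprint counts per exon were small: only 12 of the 123 had at least 10 counts in both CASC3 libraries, of which 7 were lower, and 71 had so in both RNPS1 libraries, of which 47 were lower. Among internal exons these were 6 (4 lower) in CASC3 and 49 (30 lower) in RNPS1. Among first exons they were 4 (1 lower) and 11 (7 lower). The CASC3 calls on internal and first exons thus rest mostly on exons with few footprint counts, which the filter admitted through other libraries. The last exon of UQCRFS1 (exon 2, chr19:29205321-29208158, minus strand) was 3.74 ± 0.45 lower on the log2 scale in CASC3 (edgeR adjusted p = 3.72e-05). The last exon of UQCRH (exon 4) was 6.11 ± 0.58 lower in RNPS1 footprints (edgeR adjusted p = 1.32e-06). The last exon of COX7A2 had 0 counts in both CASC3 libraries, against 44 and 33 in RNA-seq, at least 19.2-fold lower taking a floor of 3 counts over the 2 libraries together. Exon 1 of COX7C, upstream of a junction, was also lower in RNPS1 footprints, with 5.53 and 3.86 CPM against 66.3 and 81.1 CPM in RNA-seq (-4.81 ± 0.46, edgeR adjusted p = 1.36e-06).

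The ends of some exons of the genes named here are printed from the hg38 GENCODE transcripts, 30 bases up to each junction, 5′ to 3′. Not all of these exons passed a test. Capitals mark bases 27 to 20 upstream of the junction, the zone where the EJC is known to sit. The first set comes from short messages or first exons and the second from last-but-one exons, whose cycloheximide values are given below. The authors' counts are per whole exon, so where within an exon the footprints lay was not measured.
COX7C exon 1, chr5:86618101-86618130, plus strand: aggAGCCACTAtgaggagggccctgggaag
COX7C exon 2, chr5:86619467-86619496, plus strand: taaGGATGTTTcagttcctccatttaacag
COX8A exon 1, chr11:63974765-63974794, plus strand: ttgCCGCCGGAggggaagcttgggatcatg
ATP5G3 exon 1, chr2:175181656-175181685, minus strand: cagCCCGTGCCgccgccgcctcctgggaag
ATP5O exon 1, chr21:33915728-33915757, minus strand: gccCCAGCAGTgtccgggctctcccggcag
ATP5J exon 2, chr21:25729631-25729660, minus strand: caaGATTAGAGaatacaaatctaagcgaca
ATP5A1 exon 12, chr18:46084504-46084533, minus strand: ccaGCACCAAGccttgttgggcactatcag
ATP5B exon 9, chr12:56639106-56639135, minus strand: ccaTCAAAGGAttccagcagattttggcag
ATP5F1 exon 6, chr1:111459607-111459636, plus strand: cacGTGGTGCAaagcatctccacacagcag
UQCRC1 exon 12, chr3:48599635-48599664, minus strand: atgACCAGTGCccagcagtggctggatatg
The 30 bases ranged from 33.3% G and C in ATP5J exon 2 to 80.0% in ATP5G3 exon 1.

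The second question was whether CASC3 and RNPS1 footprints differed. In untreated crosslinked cells none of the 43 transcripts passed the test (edgeR), 12 had an unadjusted p under 0.05, and DESeq2 called none. Few transcripts passed at all: 0.56% of 14297, with 0.553% higher and 0.00699% lower. The median log2 fold change of CASC3 over RNPS1 was 0.47 against -0.09 for all transcripts, with 28 of 43 positive. In CPM, 18 of 43 lay above both RNPS1 libraries in both CASC3 libraries and 6 lay below. The share of all transcripts that did so was not counted, so these numbers are a description only. The complex IV median was 0.97, with 10 of 11 positive, and the complex II median -0.39. By the rule for naming, the well-covered transcripts with the largest differences were ATP5O (1.17 ± 0.48, edgeR adjusted p = 0.375), with 50.9 and 28.97 CPM in CASC3 against 21.3 and 17.9 CPM in RNPS1 libraries, and SDHB (-0.73 ± 0.64, edgeR adjusted p = 0.724).

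Among transcripts singled out after their values were seen, COX8A had a log2 fold change of 2.13 ± 0.68 (edgeR adjusted p = 0.239). ATP5J, the coupling factor 6 gene of the ATP synthase stalk, had 18.01 and 21.4 CPM in CASC3 against 6.4 and 4.8 CPM in RNPS1 libraries (1.98 ± 0.54, edgeR adjusted p = 0.15). COX7C had 1.77 ± 0.62 (edgeR adjusted p = 0.291) and ATP5G3 1.75 ± 0.68 (edgeR adjusted p = 0.345). The call rests on the spread, which the fit shares with the cycloheximide libraries. With the 4 untreated libraries alone, COX7C, ATP5G3 and ATP5J passed, all higher in CASC3, where 612 of all 12192 transcripts passed. Leaving out either cycloheximide RNPS1 library also let more transcripts pass, among the respiratory genes and among all. Without library A and without library B, the log2 fold change was 1.77 and 1.80 for COX7C, 1.74 and 1.77 for ATP5G3 and 1.98 and 2.01 for ATP5J. At the exon level 0 of 204 tested exons passed in edgeR (16 at an unadjusted p under 0.05), where 0.286% of 104449 did. More exons passed when either cycloheximide RNPS1 library was left out, here and among all exons. The smallest p values in the reported fit were those of ATP5G3 exon 1 (2.91 ± 0.93, edgeR adjusted p = 0.21), ATP5O exon 1 (2.62 ± 0.94, edgeR adjusted p = 0.348) and ATP5J exon 2 (2.95 ± 1.07, edgeR adjusted p = 0.364). ATP5G3 exon 1 had 13 and 17 counts in CASC3 libraries, against 3 and 14 in the deeper RNPS1 libraries. Complex I subunits had 0 of 37 called, with a median of 0.33, and cytoplasmic ribosomal proteins 17 of 83 higher, with a median of 1.76.

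In native libraries the medians were slightly above that of all transcripts. CASC3-EIF4A3 over RNPS1-EIF4A3 footprints had a median log2 ratio of 0.14 over the 43 transcripts after subtraction of the median of all transcripts, with 27 above 0 and a range from -0.46 in ATP5C1 to 1.56 in COX8A. MAGOH-CASC3 over MAGOH-RNPS1 had a median of 0.04, with 24 above 0 and a range from -0.90 in ATP5S to 1.18 in COX7A2L. Each native library was single, so no test was made. The 2 counts added to each library before the ratio weigh more in the shallower CASC3 libraries. They raise the ratio of transcripts with few counts: COX6A2, with 0 counts, had 1.27 and 1.01. The highest values rest on few counts, 9 and 7 for COX8A and 7 and 6 for COX7A2L. The small positive medians therefore do not show a difference between the proteins.

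Cycloheximide changed CASC3 footprints on these messages in both directions. Against untreated CASC3 libraries, 4 transcripts were higher (SDHB, ATP5A1, ATP5F1 and ATP5O) and 3 lower (ATP5I, UQCRQ and COX6A1); of all 14297 transcripts 16% were higher and 15.8% lower, so 7 of 43 is a smaller share than the background of 31.8%. The median log2 fold change was -0.17 against 0.06 for all. SDHB had 65.5 and 53.0 CPM with cycloheximide against 21.2 and 7.6 CPM without (2.25 ± 0.64, edgeR adjusted p = 0.0181). ATP5A1 had 276.1 and 267.1 CPM against 84.8 and 50.4 CPM (2.23 ± 0.74, edgeR adjusted p = 0.0346). ATP5F1, the peripheral stalk subunit b, had 90.2 and 76.5 CPM against 33.9 and 12.6 CPM (2.06 ± 0.54, edgeR adjusted p = 0.0122). In each of these the groups did not overlap. The untreated CASC3 libraries held few counts, 20 and 6 for SDHB and 32 and 10 for ATP5F1. ATP5O, the stalk subunit that joins the catalytic head, had 110.0 and 80.4 CPM against 50.9 and 28.97 CPM (1.46 ± 0.46, edgeR adjusted p = 0.0288). Exons 1 to 5 of ATP5O and exon 2 of COX6A1 are covered almost entirely by another annotated transcript on the same strand, so the counts of both genes, here and in the other comparisons, are uncertain.

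On the lower side, ATP5I, the small membrane subunit e (chr4:672436-674338, minus strand), had 3.8 and 3.0 CPM with cycloheximide against 21.2 and 31.5 CPM without (-2.76 ± 0.72, edgeR adjusted p = 0.012). UQCRQ, a small complex III subunit, had 13.03 and 8.8 CPM against 38.1 and 49.1 CPM (-1.83 ± 0.49, edgeR adjusted p = 0.0143). COX6A1 had 10.4 and 10.0 CPM against 22.2 and 49.1 CPM (-1.64 ± 0.53, edgeR adjusted p = 0.0308). The 4 higher transcripts have 7 to 13 exons and the 3 lower ones 3 or 4. By exon number, the median log2 fold change was -0.52 for 2 to 4 exons, -0.42 for 5 to 7 and 0.95 for 8 or more, against -0.75, 0.07 and 0.41 for other transcripts. None of the 7 calls was made again under every left-out library: all were lost without either cycloheximide library and without untreated library B. No sign changed. The spread estimate is shared with the RNPS1 libraries. Leaving out either cycloheximide RNPS1 library let more of these transcripts pass, and more of all transcripts as well. The median stayed at -0.17 in both fits. Some transcripts were singled out after their values were seen. Without library A and without library B, the log2 fold change was 1.45 and 1.46 for ATP5B and 0.91 and 0.94 for UQCRC2. On the lower side it was -1.77 and -1.76 for ATP5G3 and -1.72 and -1.71 for COX8A.

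**Figure D3:**
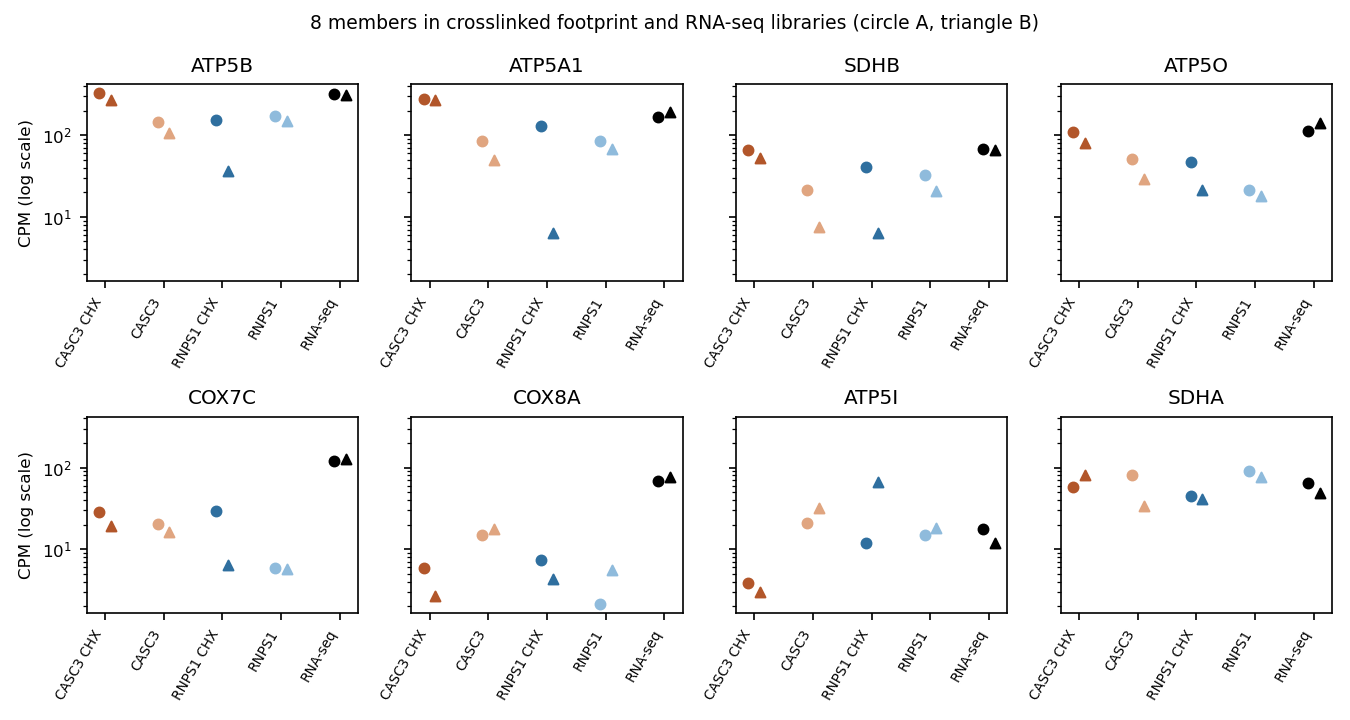
CPM (log scale) of 8 transcripts in each crosslinked and RNA-seq library (circle A, triangle B). ATP5B, ATP5A1, SDHB and ATP5O lie higher in both cycloheximide CASC3 libraries than in both untreated ones, ATP5I and COX8A lie lower (ATP5B and COX8A did not pass the test), and COX7C and COX8A are highest in RNA-seq.

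In RNPS1 footprints 0 of the 43 passed with cycloheximide against untreated (edgeR), 6 had an unadjusted p under 0.05, DESeq2 called 1, and 0.021% of all 14297 passed. The median was 0.25. Without cycloheximide library A it was -0.57, against -0.18 for all transcripts, and without library B 0.35, against 0.0008. More transcripts passed in both of these fits, among all transcripts as well. Among the well-covered transcripts named by the rule, the largest log2 fold changes were those of ATP5O (0.93), ATP5J2-PTCD1 (0.85) and COX5A (0.71). The most negative were those of UQCRC1 (-1.09), SDHA (-0.93) and ATP5B (-0.68). Outside the rule, ATP5J had the smallest p: 19.2 and 36.3 CPM with cycloheximide, 6.4 and 4.8 CPM without (2.22 ± 0.53, edgeR adjusted p = 0.211). The test of the difference itself, the cycloheximide change in CASC3 minus that in RNPS1, called 0 of the 43 in edgeR and 0% of all transcripts; 14 of the 43 had an unadjusted p under 0.05 and DESeq2 called 1. The values named by the rule were ATP5A1 (2.27 ± 1.01, edgeR adjusted p = 0.267), SDHB (2.16, adjusted p = 0.229) and ATP5B (2.12 ± 0.76, edgeR adjusted p = 0.197) on the positive side and ATP5G2 (-0.83, adjusted p = 0.49) and SDHC (-0.25, adjusted p = 0.87) on the negative side. Larger negative values, singled out after they were seen, were those of the less covered ATP5I (-3.80 ± 0.99, edgeR adjusted p = 0.124), which is the DESeq2 call, COX7B (-2.58) and COX8A (-2.41). The median was -0.55, against 0.02 for all transcripts. Without cycloheximide RNPS1 library A it was 0.51, against 0.30 for all, and without library B -0.68, against 0.06. Both fits let more transcripts pass, among all transcripts as well. The cycloheximide RNPS1 results thus rest on which of its 2 unlike libraries is kept.

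With cycloheximide, CASC3 footprints were higher than RNPS1 footprints for ATP5B, ATP5O, ATP5F1 and UQCRC1 and lower for ATP5I and COX7B, 6 of 43, where 6.42% of all transcripts were higher and 7.69% lower (14.1% in all). ATP5B had 325.7 and 270.1 CPM in CASC3 against 153.6 and 36.3 CPM in RNPS1 libraries (1.92 ± 0.55, edgeR adjusted p = 0.0338). ATP5O differed by 1.70 ± 0.46 (edgeR adjusted p = 0.0287), ATP5F1 by 1.67 ± 0.51 (edgeR adjusted p = 0.043) and UQCRC1 by 1.49 ± 0.45 (edgeR adjusted p = 0.0408). ATP5A1 had the largest positive value but did not pass (2.22 ± 0.73, edgeR adjusted p = 0.0549). COX7B, a small complex IV subunit, had 7.4 and 5.1 CPM in CASC3 against 24.96 and 23.5 CPM in RNPS1 libraries (-1.63 ± 0.50, edgeR adjusted p = 0.0432). ATP5I had 3.8 and 3.0 CPM against 11.997 and 66.3 CPM (-2.97 ± 0.72, edgeR adjusted p = 0.0207), and all 31 of its counts in RNPS1 library B lay in exon 3. Its call was lost without that library. The 6 calls were all lost without either cycloheximide CASC3 library, and 1 or 2 transcripts passed without any 1 of the 4 untreated libraries, which share the estimate of spread. When either cycloheximide RNPS1 library was left out, more transcripts passed, among the respiratory genes and among all. ATP5B was 3.39 without library A and 1.40 without library B, ATP5F1 2.84 and 1.34, ATP5O 2.51 and 1.44, UQCRC1 2.16 and 1.28, and COX7B -1.55 and -1.56. The call of COX7B was lost without library A. The median of the 43 was -0.04 against -0.07 for all transcripts. Without RNPS1 library A it was 1.00, against 0.21 for all transcripts.

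**Figure D4:**
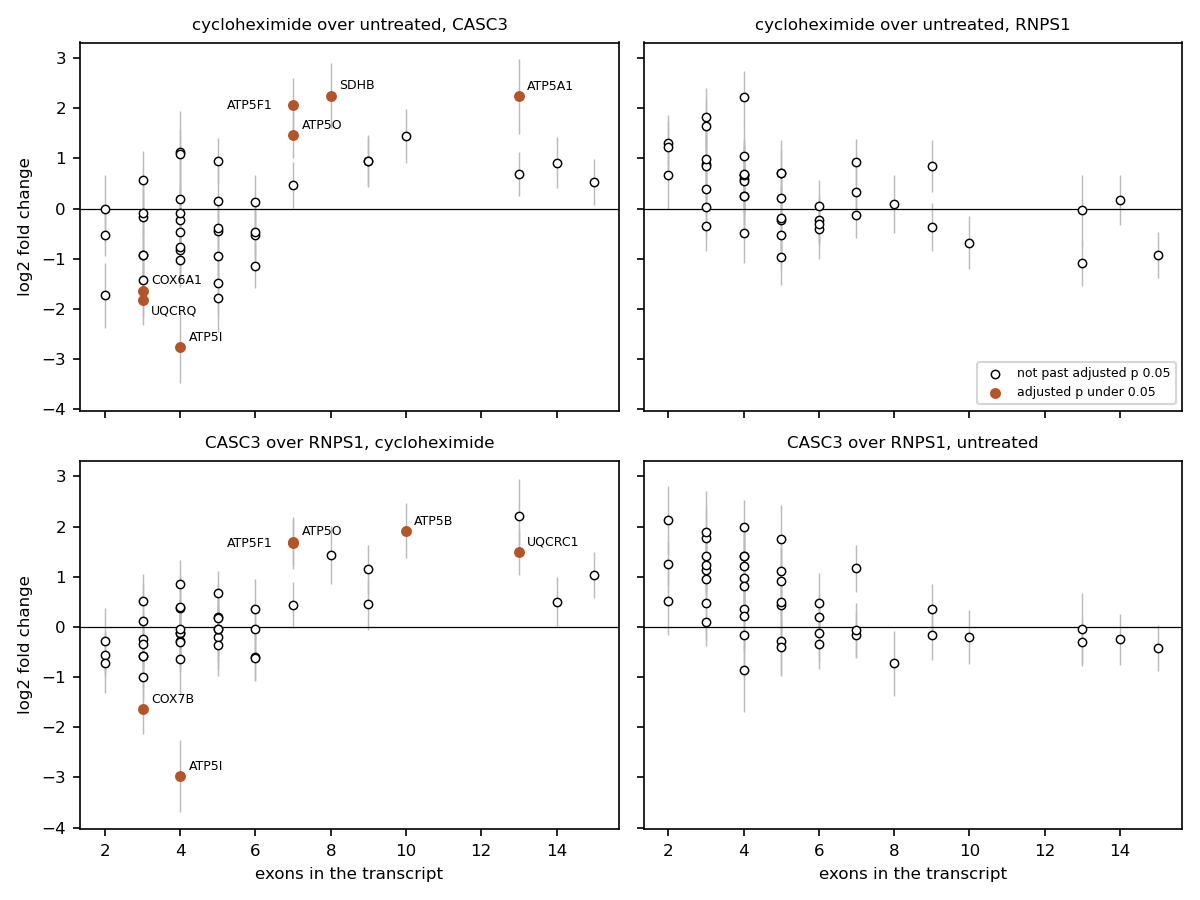
Log2 fold change with its standard error against the number of exons for the 43 transcripts, in 4 comparisons; filled points passed an adjusted p of 0.05. With cycloheximide, transcripts of 7 or more exons lie above 0 in CASC3 over untreated and in CASC3 over RNPS1, while in untreated cells the highest CASC3 over RNPS1 values are at 2 to 5 exons.

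Along the longer messages, cycloheximide CASC3 footprints lay toward the 3′ end. This was examined, after the data were seen, in the 10 genes with at least 7 exons (SDHA, SDHB, CYC1, UQCRC1, UQCRC2, ATP5A1, ATP5B, ATP5C1, ATP5F1 and ATP5O), leaving out the read-through. Their last-but-one exons took 25.8% and 30.3% of counts in cycloheximide CASC3 libraries, against 14.2% and 16.2% in untreated CASC3 libraries. In RNPS1 these shares were 10.3% and 15.2% with cycloheximide and 10.0% and 9.09% without, and in RNA-seq 10.1% and 9.03%. The first exons showed the opposite, with 1.25% and 0.90% in cycloheximide CASC3 libraries against 12.95% and 13.4% in untreated ones, and so did the upstream internal exons, with 16.3% and 14.2% against 36.7% and 35.9%. The other 11611 transcripts with at least 7 exons moved in the same direction, with last-but-one shares of 11.4% and 13.6% against 5.77% and 6.99%. Last-but-one exons hold 7.01% of exonic length in the 10 genes and 3.61% in the others, and with 2 libraries a group no test was made. SDHA carries no information on this share. Its exon 14 held 1 of 465 and 0 of 540 counts in cycloheximide CASC3 libraries and 0 of 73 and 0 of 57 in RNA-seq. Why this exon was almost uncounted was not tested.

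Gene by gene, exon 12 of ATP5A1 held 649 of 2225 counts (29.2%, 95% exact binomial interval 27.3% to 31.1%) and 711 of 1790 (39.7%, 37.4% to 42.0%) in cycloheximide CASC3 libraries, against 8 of 80 (10.0%, 4.42% to 18.8%) and 11 of 40 (27.5%, 14.6% to 43.9%) in untreated CASC3 libraries. The untreated counts are few, and the intervals cover counting error only. ATP5B exon 9 took 28.4% and 29.8% of the gene's counts with cycloheximide against 16.7% and 16.5% without. UQCRC1 exon 12 took 20.3% and 27.04% against 16.4% and 26.1%, so its groups overlapped. ATP5F1 exon 6 did not have the higher share with cycloheximide, at 34.5% and 50.9% against 16 of 32 counts and 6 of 10. The last exon of ATP5A1 (exon 13) was at 0 counts in both untreated CASC3 libraries, against 29 and 28 in RNA-seq, at least 14.2-fold lower at the floor of 3 counts; with cycloheximide it had 34.5 and 10.6 CPM.

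**Figure D5:**
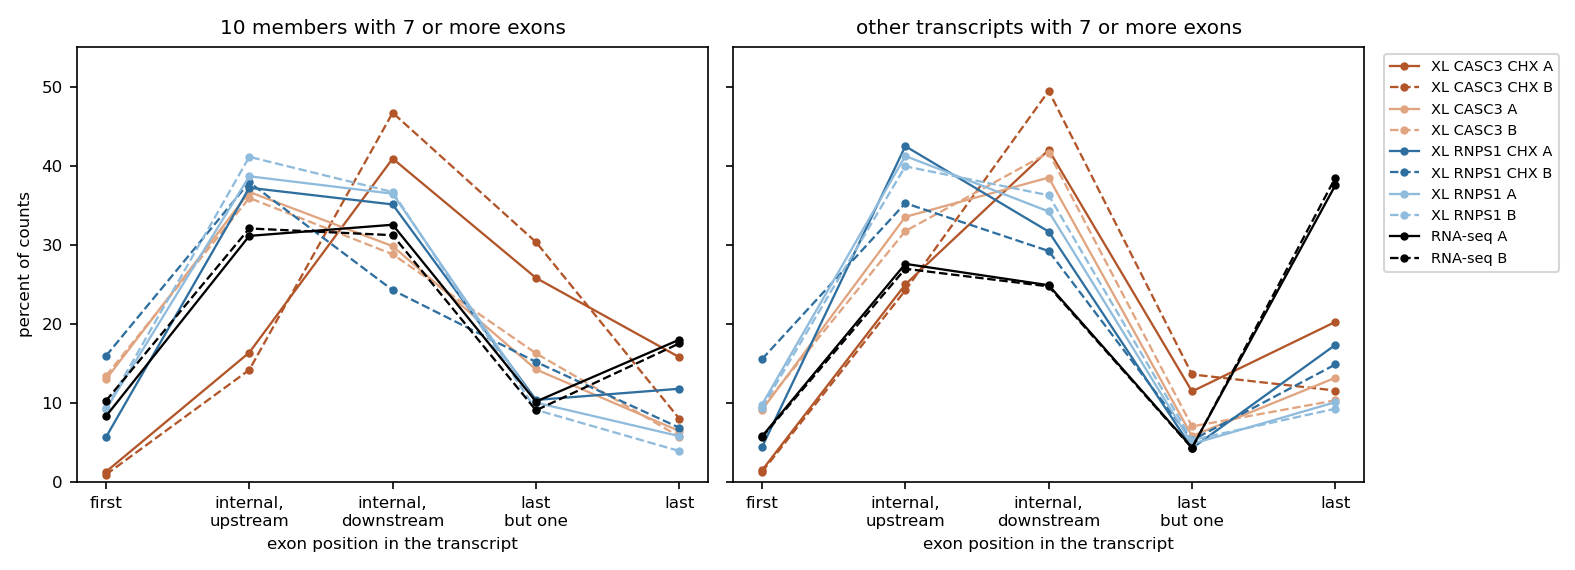
Percent of counts by exon position in 10 respiratory genes (left) and 11611 other transcripts (right) with 7 or more exons, in each crosslinked and RNA-seq library (solid A, dashed B). Both cycloheximide CASC3 lines are lowest at first exons and highest at last-but-one exons in both panels, and RNA-seq is highest at last exons.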

How the data were processed

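RNA fragments in 13 footprint and 2 RNA-seq libraries were sequenced. The submitters' processing notes name cutadapt 1.16, TopHat2 2.1.1, bedtools and the build hg38. No annotation or strand setting is stated there or in the labels, so overlapping and antisense genes cannot be told apart. The authors deposited whole-number counts per exon and per transcript; their table held no normalized values. The exon table had 19 blank lines, which were skipped, and 265 of 267 exons described here had the same coordinates in GENCODE v29.

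Samples were grouped by their labels. The members and gene lists were chosen with earlier results of these data known. Counts were tested in R 4.3.3 with edgeR 4.0.16 (TMM, glmQLFit and glmQLFTest, filterByExpr with a minimum count of 10). P-values were adjusted by Benjamini-Hochberg over all features tested, with a threshold of 0.05, and SE is the log2 fold change divided by the root of F. Comparisons among footprints used the 8 crosslinked libraries, and those with RNA-seq used 6 (untreated CASC3, untreated RNPS1 and RNA-seq). The last-exon share was compared by an exact permutation test. Native libraries were compared as log2 CPM ratios with a prior count of 2. In simulated data for the untreated CASC3 and RNPS1 comparison (14297 transcripts, dispersion 0.1), 76% of 4-fold and 100% of 16-fold changes were recovered, with 11 false calls of 187. The changed transcripts were drawn from well-covered ones and all raised in CASC3, and the dispersion was set, not fitted to these data. The recovery therefore does not give the power of the tests on the real libraries. DESeq2 1.42.0, other scalings, filters, exon classes, a replicate block and left-out libraries were alternatives. PCR reads without molecular identifiers are not independent molecules, so intervals and floors cover counting error only.

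Named were: every transcript called in a comparison (the 6 largest in each direction where over 12 were called), the 3 largest and 3 smallest log2 fold changes at an average log2 CPM (counts scaled to library size) of at least 5, the 3 highest and the lowest of each complex in RNA-seq, isoform families, and the 3 exons with the smallest p. Exceptions are stated. Scripts used Python 3.11.15, pandas 2.3.3, numpy 2.4.6, SciPy 1.17.1 and matplotlib 3.10.9. A further exon end and its result are not reported here.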

Additional observations from a re-analysis of the deposited data

How the results depend on the processing

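The comparisons with RNA-seq held under every alternative in the sense that the count of called transcripts stayed within 1.5 times that reported: 22 to 32 of 43 in CASC3 and 32 to 36 in RNPS1 footprints when single libraries were left out, and 62 to 99 and 85 to 120 exons. Where 1 library of a group remained, it was assumed to vary like the other groups. For the other counts the cause of a change was not tested. For CASC3 over RNPS1 in untreated cells, 0 transcripts became 3 with only the groups compared and 0 to 4 without single libraries; 0 exons became 3 and 0 to 6. With cycloheximide, 6 became 2 with library totals as scaling, 2 with first and internal exons only, 0 with only the groups compared and 0 to 13 without single libraries. Library totals moved the calls of all transcripts in that comparison to 395 higher and 1830 lower (reported fit: 918 and 1099) and the median of all transcripts to -0.40. For cycloheximide in CASC3, 7 became 11 with DESeq2 size factors, with the replicate block and with first and internal exons only, 16 with only the groups compared, 12 with the DESeq2 Wald test and 0 to 19 without single libraries; its all-transcript split became 1481 higher and 2586 lower with library totals (reported fit: 2293 and 2258), with a median of -0.15. For cycloheximide in RNPS1, 0 became 1 with no filter or the Wald test and 0 to 6 without single libraries; for the difference between the proteins, 0 became 2 with no filter, 1 with the Wald test and 0 to 11. The last-exon difference was -21.9 percentage points in native libraries (exact p = 0.0952) and -28.1 in untreated crosslinked ones (exact p = 0.133), fewer libraries entering both, and -24.2 to -23.2 without an RNA-seq library. With first and internal exons only, signs turned for ATP5S (0.51 in CASC3 and 1.25 in RNPS1 over RNA-seq), SDHC (0.13 in RNPS1) and ATP5J2-PTCD1 (-0.10 in RNPS1). Of 442 values of named transcripts under alternatives, 349 kept their side of the threshold, 89 lost it and 4 turned; of 93 medians, 77 stayed within the spread and 16 moved. Counts over all transcripts ranged more widely: 0 to 795 for CASC3 over RNPS1 untreated (80 reported), 0 to 5011 with cycloheximide (2017), 356 to 7030 for cycloheximide in CASC3 (4551), 0 to 2033 in RNPS1 (3) and 0 to 3474 for the difference between the proteins (0). With first and internal exons only, 3311 rather than 6329 transcripts were called for CASC3 over RNA-seq and 4228 rather than 7637 for RNPS1 over RNA-seq. Nothing in the labels says what the letters A and B share. Deviations of same-lettered footprint libraries correlated above 0.1 in 5 of 6 pairs of groups (up to 0.33) and at 0.03 between CASC3 with and without cycloheximide, so with 2 libraries a group pairing was not established. With the letter as replicate block, 8 transcripts were called for CASC3 over RNPS1 with cycloheximide (ATP5A1 and SDHB gained), 32 for CASC3 and 37 for RNPS1 over RNA-seq, 11 for cycloheximide in CASC3 (ATP5B, ATP5G3, COX8A and UQCR11 gained) and 0 in the others; over all transcripts the difference between the proteins had 177 calls rather than 0. Depth limited cycloheximide RNPS1 library B most, with 467741 counts.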
